A study of Mus musculus with 15 samples.

Results

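The interferon response and antigen presentation genes described here are 35 genes that cells switch on or raise when they sense interferon. They were given as a list of mouse gene symbols and matched through the Entrez gene identifiers of the deposited count table. All 35 were found among its 27179 identifiers, and all 35 passed the filter on low counts that left 16816 genes for testing. The list holds 4 sensors of viral RNA or their partners, 5 signalling factors, 20 antiviral effectors, 3 genes of the immunoproteasome and peptide transport, and 3 chains of class I major histocompatibility molecules.

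The libraries are bulk RNA-seq of dissected medial prefrontal cortex, a region that regulates the extinction of learned fear. All groups were C57BL/6J mice, and no age or sex was given for them. The groups were mice labelled ABX-treated after fear extinction (n = 4), mice without ABX after extinction (n = 4), ABX-treated mice before extinction (n = 4), and mice without ABX before extinction (n = 3, numbered 1, 3 and 4). ABX is the field's usual abbreviation for an antibiotic mixture, and the labels name no drugs, dose or length of treatment. The labels' extraction text speaks of sorted cells while the source is whole dissected tissue. Markers of neurons, astrocytes, oligodendrocytes and microglia were present in every library, with a summed microglia marker level of 340 to 394, 328 to 391, 321 to 386 and 334 to 370 CPM, that is counts scaled to the library's total, in these 4 groups.

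Interferons are secreted signalling proteins released when a cell detects viral or misplaced nucleic acid. Type I interferons bind the IFNAR receptor and send a complex that holds STAT2 and IRF9 to interferon-stimulated response elements (ISREs), whereas interferon gamma acts through gamma-activated sites (GAS). Class I molecules carry peptides, cut by the proteasome and pumped into the endoplasmic reticulum by TAP, to the cell surface for inspection by T cells. In the healthy brain most of these genes are held at a low basal level.

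RefSeq promoter windows from 250 bases before to 50 bases after the start of transcription were matched to 28 of the 35 genes (build GRCm38.p6). Both strands were searched for GAAA followed, after any 2 bases, by another GAAA, a core of the ISRE. They were also searched for TTC and GAA with any 3 bases between them, the GAS core, and matches were allowed to overlap each other. A gene was counted if any of its windows held a match. The ISRE letters were held by 14 of the 28 genes (50%), against 3.94% of 26997 other genes with a window. They were held by 2 of 3 sensors with a window, 1 of 4 signalling factors, 10 of 15 antiviral effectors, 0 of 3 genes of the immunoproteasome and peptide transport, and 1 of 3 class I chains. The GAS letters were held by 7 of the 28 genes (25%), against 9.54% of the other genes. A match is a description of letters and not a shown binding site.

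Promoters of 6 genes are printed here because their genes recur in the results, as effectors, a signalling factor and a class I chain, 5′ to 3′ on the gene's strand, from 250 bases before the start to the first 30 transcribed bases. The ISRE letters are in capitals. Ifit1 is at chr19:34640639-34640918 on the plus strand and Ifit3 at chr19:34583279-34583558 on the plus strand, each with 2 matches. Isg15, at chr4:156200789-156201068 on the minus strand, has 3 overlapping matches, and Ifitm3, at chr7:141010715-141010994 on the minus strand, has 2, both past its annotated start. Irf7, at chr7:141266395-141266674 on the minus strand, and H2-D1, at chr17:35262844-35263123 on the plus strand, hold 0 of these letters in this window.
Ifit1: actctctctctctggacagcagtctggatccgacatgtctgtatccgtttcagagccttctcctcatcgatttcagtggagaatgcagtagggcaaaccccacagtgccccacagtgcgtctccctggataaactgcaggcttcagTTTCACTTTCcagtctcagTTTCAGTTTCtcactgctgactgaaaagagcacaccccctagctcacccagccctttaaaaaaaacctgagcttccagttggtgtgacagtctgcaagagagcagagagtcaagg
Ifit3: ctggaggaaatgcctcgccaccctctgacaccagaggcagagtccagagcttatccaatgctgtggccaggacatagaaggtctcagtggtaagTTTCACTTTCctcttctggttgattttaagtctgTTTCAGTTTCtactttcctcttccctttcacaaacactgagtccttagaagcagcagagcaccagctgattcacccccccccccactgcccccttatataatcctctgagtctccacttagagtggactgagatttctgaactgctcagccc
Isg15: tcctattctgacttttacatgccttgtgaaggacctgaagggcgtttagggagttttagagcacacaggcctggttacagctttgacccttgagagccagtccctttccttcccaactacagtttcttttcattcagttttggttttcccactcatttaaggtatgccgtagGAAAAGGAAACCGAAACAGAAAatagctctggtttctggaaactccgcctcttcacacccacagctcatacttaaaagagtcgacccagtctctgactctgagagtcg
Ifitm3: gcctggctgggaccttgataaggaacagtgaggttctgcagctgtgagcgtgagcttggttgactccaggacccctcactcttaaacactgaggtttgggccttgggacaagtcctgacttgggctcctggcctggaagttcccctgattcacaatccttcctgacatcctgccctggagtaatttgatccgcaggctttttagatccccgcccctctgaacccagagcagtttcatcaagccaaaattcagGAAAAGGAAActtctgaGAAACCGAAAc
Irf7: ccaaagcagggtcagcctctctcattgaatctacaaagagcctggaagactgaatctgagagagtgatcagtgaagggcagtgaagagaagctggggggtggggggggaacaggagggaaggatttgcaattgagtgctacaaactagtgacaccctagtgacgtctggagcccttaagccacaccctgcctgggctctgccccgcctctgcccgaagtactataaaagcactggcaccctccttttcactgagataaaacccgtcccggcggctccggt
H2-D1: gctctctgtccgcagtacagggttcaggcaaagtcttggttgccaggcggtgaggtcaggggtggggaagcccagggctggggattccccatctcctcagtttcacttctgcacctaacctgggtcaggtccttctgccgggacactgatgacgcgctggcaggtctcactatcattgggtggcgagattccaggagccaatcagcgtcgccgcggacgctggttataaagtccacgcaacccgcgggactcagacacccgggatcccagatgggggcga

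Levels were compared between genes only after division by the length of the longest annotated transcript, in CPM per kilobase. B2m, the invariant light chain of class I molecules, was highest at 96.2 CPM per kilobase over all libraries, followed by the effector Ifi27 at 18 and Ifitm3, which blocks virus entry at endosomal membranes, at 10.4. The lowest were the effectors Mx1 (0.108), Ifi44 (0.127) and Oas1a (0.163), which had 8 to 46, 9 to 47 and 7 to 25 raw counts per library. Mx1, a dynamin-like antiviral GTPase, is annotated as a transcribed pseudogene in the RefSeq annotation used. So the pathway's messenger RNAs covered a wide span, with the class I light chain far above the inducible effectors.

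**Figure D1:**
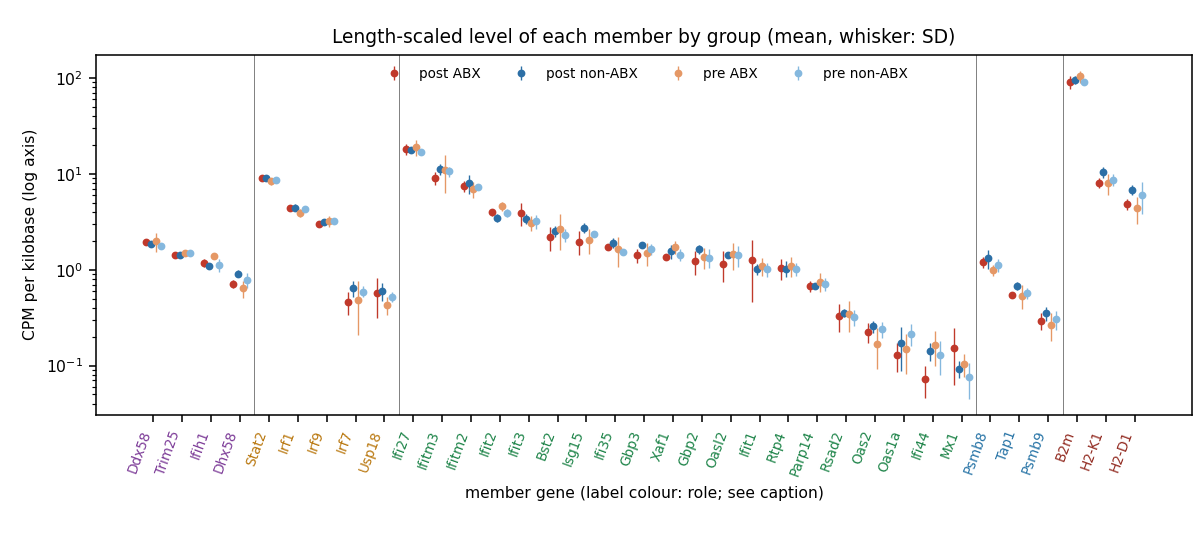
Mean level of the 35 genes in CPM per kilobase of transcript (log axis) in each of the 4 groups, with SD as whiskers (n = 4, and n = 3 for pre non-ABX); label colours are purple for sensors, ochre for signalling factors, green for antiviral effectors, blue for immunoproteasome and peptide transport and dark red for class I chains. B2m lies highest at 96.2 CPM per kilobase over all libraries and Mx1 lowest at 0.108, and the 4 groups lie close together for most genes.

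For the most abundant gene of each role the ABX and non-ABX libraries overlapped at both stages. Ddx58 encodes RIG-I, a sensor of viral RNA ends, and had 7.6, 7.63, 7.03 and 7.81 CPM in ABX libraries after extinction against 7.57, 7.22, 7.05 and 6.75 CPM in non-ABX libraries. Before extinction it had 9.45, 6.06, 6.40 and 8.73 CPM in ABX libraries and 7.14, 6.50 and 7.10 CPM in non-ABX libraries. The groups overlapped at both stages. Stat2, the transactivating partner in the ISRE-binding complex, had 39.6, 40.4, 43.1 and 37.8 CPM in ABX libraries after extinction against 39.1, 43.7, 37.0 and 39.6 CPM in non-ABX libraries. Before extinction the ABX libraries had 36.6, 40.7, 33.0 and 37.9 CPM of Stat2 and the non-ABX libraries 38.7, 37.8 and 37.0 CPM. All groups of Stat2 overlapped, and the log2 fold change was -0.01 with SE 0.0527 for ABX over non-ABX averaged over both stages.

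Ifi27, an interferon-induced membrane protein, had 20.9, 16.4, 17.2 and 16.4 CPM in ABX libraries after extinction against 17.3, 17.3, 17.4 and 16.7 CPM in non-ABX libraries. Before extinction it had 17, 17.3, 16.2 and 23.5 CPM with ABX and 16.9, 17.4 and 15.8 CPM without. The groups overlapped, and the highest values were in 1 ABX library of each stage. Psmb8, a catalytic subunit of the immunoproteasome, had 2.53, 2.06, 2.03 and 2.52 CPM in ABX libraries after extinction against 2.81, 2.87, 2.67 and 1.68 CPM in non-ABX libraries. Before extinction Psmb8 had 1.86, 1.83, 1.64 and 2.22 CPM with ABX and 1.98, 2.55 and 1.93 CPM without. B2m had 96.9, 74.5, 69.5 and 73.4 CPM in ABX libraries after extinction against 93.4, 82.1, 79.6 and 74.7 CPM in non-ABX libraries. Its libraries before extinction had 101, 73.4, 87.4 and 97.9 CPM with ABX and 82.4, 74.9 and 79.7 CPM without, so that these groups overlapped too.

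A pair of ABX libraries stood apart from their groups in this pathway. In ABX library 4 before extinction, 33 of the 35 genes lay above the mean of the other libraries of its group and 27 were its highest values, with a median log2 difference of 0.48. In ABX library 1 after extinction, 33 of 35 lay above and 26 were highest, with a median of 0.34. Over all genes tested 50.4% and 51.7% lay above in these libraries, and 33% and 30% were highest. Of the 120 further pathway genes tested, 86 lay above in library 4 before extinction and 83 in library 1 after extinction. No other library had more than 26 of 35 genes above the rest of its group.

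The pair was led by different genes. In ABX library 4 before extinction the largest log2 differences from the rest of the group were those of Irf7 (1.33), the factor that amplifies type I interferon production, Oas2 (1.08), a synthetase that activates RNase L on double-stranded RNA, and Ifitm3 (1.04). In ABX library 1 after extinction they were those of Ifit1 (1.5), which binds viral RNA ends, Mx1 (1.32) and Usp18 (1.05), which strips ISG15 from proteins and damps the receptor. Irf7 had 1.11, 1.14, 1.13 and 2.90 CPM in ABX libraries before extinction against 1.71, 2.19 and 1.85 CPM in non-ABX libraries. Library 4 was the highest of all 15 libraries and the other 3 ABX libraries lay below every non-ABX library. Ifit1 had 6.47, 2.33, 2.24 and 2.23 CPM in ABX libraries after extinction against 2.66, 3.04, 2.80 and 2.23 CPM in non-ABX libraries. Library 1 alone was above the non-ABX libraries. The class I heavy chain H2-D1 lay 0.77 above its group in ABX library 4 before extinction and 0.02 above it in ABX library 1 after extinction.

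**Figure D2:**
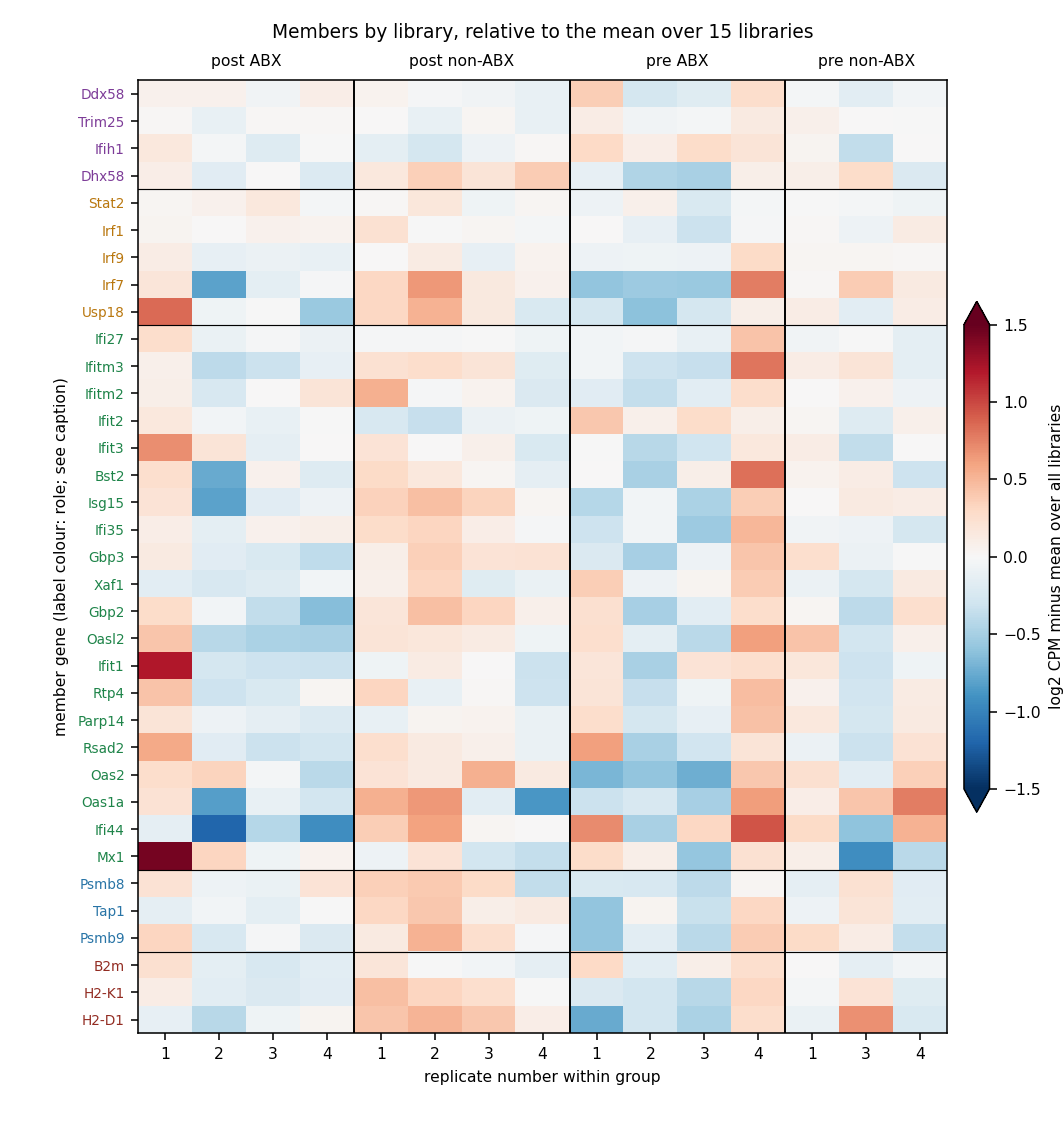
Log2 CPM of each of the 35 genes (rows, by role, with label colours as in the plot of length-scaled levels) in each of the 15 libraries (columns), relative to the mean over all libraries; the colour bar ends at 1.5 in both directions. Columns post ABX 1 and pre ABX 4 are red over most rows, with Ifit1 and Mx1 darkest in the first and Irf7, Ifitm3, Bst2 and Ifi44 in the second. Most rows also lie above the mean over all libraries in columns post non-ABX 1, 2 and 3 and pre non-ABX 1. The pair is apart from the other libraries of its own groups.

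Other cell types were measured beside these libraries. The summed level of 6 neutrophil markers was 9.92 CPM in ABX library 1 after extinction and 0.229 to 0.403 CPM in the other 3 of its group, with S100a9 at 3.62 CPM and Ngp at 2.26 CPM. Its 3 choroid plexus markers summed to 15.1 CPM against 3.19 to 4.29 CPM, and its 3 monocyte markers to 1.09 against 0.333 to 0.370 CPM. Its 4 erythroid markers summed to 2.68 CPM against 0.638 to 1.33 CPM. Its 7 microglia markers summed to 394 CPM against 340 to 354 CPM. The microglia sum of ABX library 4 before extinction was 358 CPM, within the 321 to 386 CPM of the other 3 in its group. In ABX library 4 before extinction the neutrophil sum was 0.282 CPM, within the 0.224 to 0.432 CPM of non-ABX libraries, with 0 of the 6 markers at 0 over the group. Its 8 endothelial markers summed to 210 CPM against 153 to 185 CPM in the other 3 libraries of its group, its 6 pericyte and smooth muscle markers to 138 against 102 to 108 CPM, and its 5 meningeal fibroblast markers to 77.5 against 55.2 to 64.7 CPM. In that library the genes of highest transcript GC content lay 0.07 above those of lowest GC content in their log2 deviation from the mean over all libraries, against -0.65 to -0.20 in the other 3. High marker sums were also found outside the pair. ABX library 4 after extinction, with 14 of 35 genes above, had its group's highest endothelial (215 CPM) and pericyte and smooth muscle (127 CPM) sums. ABX library 1 before extinction, with 18 of 35 above, had its group's highest neutrophil (1.44 CPM) and erythroid (1.7 CPM) sums. The part of these cell types and of GC content in the high values was not tested.

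Setting ABX against non-ABX libraries after extinction asks how the pathway differed with the treatment once extinction had taken place. None of the 35 genes was called, that is 0 genes had an adjusted p under 0.05 by edgeR, where 3 of all 16816 genes (0.0178%) were called. DESeq2 and limma-voom with sample weights called 0 as well, beside 1.08% and 1.82% of all genes. Without the 2 libraries that stood apart and with GC correction, 1 was called lower, Gbp3, beside 0.5% of all genes. That omission was chosen after seeing the data, and leaving out libraries where the pathway was high lowers the ABX levels by construction. At an unadjusted p under 0.05, 0 were higher and 6 lower with ABX, beside 6.45% and 6.83% of all genes in these directions. Of the 35 log2 fold changes 25 were negative, with a median of -0.14 beside 0.01 over all genes. Both values moved with single libraries, and so did the share of all genes at an unadjusted p under 0.05 in either direction. Without ABX library 2 after extinction 1 gene had such a p, beside 8.65% of all genes (median -0.05). Without non-ABX library 1, 2 or 3 after extinction there were 3, beside 11.1%, 7.41% and 9.77% (medians -0.08, -0.09 and -0.11). Without ABX library 3 after extinction there were 4, beside 14.9% (median -0.09). Without ABX library 1 after extinction there were 7, beside 9.63% (median -0.25). The count was 9 without ABX library 4 before extinction, beside 14.9%. The median was -0.21 without non-ABX library 4 after extinction. By role, negative values were seen for 1 of 4 sensors, 4 of 5 signalling factors, 14 of 20 effectors, 3 of 3 immunoproteasome and transport genes, and 3 of 3 class I chains. In bulk tissue, fewer cells of a type and less RNA per cell cannot be told apart.

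In 4 genes the ABX libraries after extinction all lay below the non-ABX libraries, beside 6.36% of all genes, and 0 genes lay above, beside 4.74%. H2-D1, a classical class I heavy chain that binds the peptide, had 10.2, 8.31, 10.6 and 11.4 CPM in ABX libraries against 14.8, 15.9, 14.7 and 11.9 CPM in non-ABX libraries (log2 fold change -0.50, SE 0.209, edgeR adjusted p = 0.337). Dhx58, which encodes LGP2, a regulator of the RNA sensors, had 1.94, 1.61, 1.81 and 1.56 CPM against 2.02, 2.33, 2.06 and 2.37 CPM (-0.34, SE 0.147, edgeR adjusted p = 0.344). Ifi44, an interferon-induced protein, had 0.426, 0.185, 0.343 and 0.229 CPM in ABX libraries against 0.623, 0.737, 0.484 and 0.473 CPM in non-ABX libraries (-0.97, SE 0.358, edgeR adjusted p = 0.305). These groups did not overlap, but the fold changes did not pass the test over all genes. The remaining gene was Tap1, a subunit of the peptide transporter, outside the naming rule and picked after its values were seen. It had 2.04, 2.18, 2.03 and 2.25 CPM with ABX and 2.79, 2.99, 2.40 and 2.47 CPM without (-0.32, SE 0.161, edgeR adjusted p = 0.388).

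The other 3 genes with an unadjusted p under 0.05 after extinction overlapped between groups. H2-K1, the other classical class I heavy chain measured, had 17.6, 14.6, 14 and 14.4 CPM in ABX libraries against 22.3, 20.4, 19.4 and 16.3 CPM in non-ABX libraries (log2 fold change -0.37, SE 0.143, edgeR adjusted p = 0.315). Isg15, a ubiquitin-like modifier, averaged 1.49 CPM with ABX and 2.08 CPM without (-0.48, SE 0.203, edgeR adjusted p = 0.341). Gbp3, an interferon-inducible guanylate-binding GTPase, averaged 3.77 and 4.88 CPM (-0.37, SE 0.164, edgeR adjusted p = 0.350). For H2-K1 the overlap was that of ABX library 1 (17.6 CPM), one of the pair that stood apart, with non-ABX library 4 (16.3 CPM). The table cannot show how reads shared by class I genes, by guanylate-binding proteins or by Ifit, Ifitm and Oas relatives were divided, so single members of these families are uncertain.

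**Figure D3:**
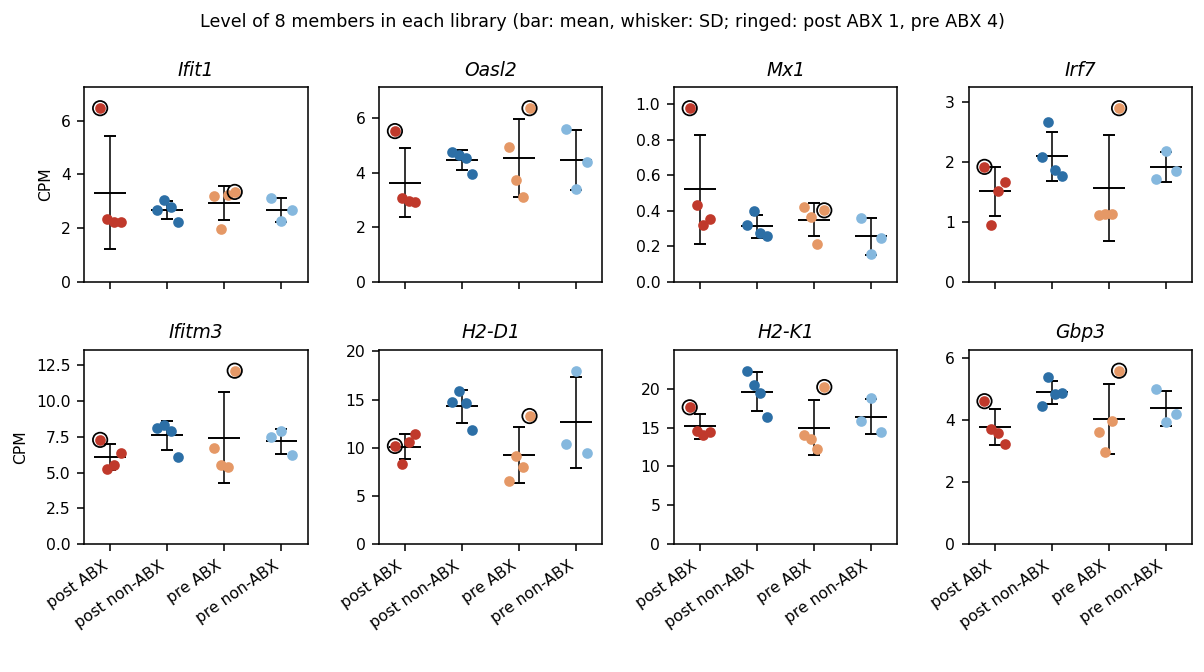
CPM of 8 genes in each library of the 4 groups (points), with the group mean as a bar and SD as whiskers (n = 4, and n = 3 for pre non-ABX); rings mark ABX library 1 after extinction and ABX library 4 before extinction. Ifit1, Oasl2 and Mx1 are high in the first, Irf7 and Ifitm3 in the second, and the ABX libraries of H2-D1 after extinction (8.31 to 11.4 CPM) lie below the non-ABX libraries (11.9 to 15.9 CPM).

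The same contrast before extinction asks whether the pathway differed with ABX ahead of the extinction sessions. EdgeR called 0 of 35 genes, beside 1 of all genes (0.00595%). DESeq2 and limma-voom called 0, beside 0.0892% and 0.00595% of all genes. With no adjustment, p was under 0.05 for 2 genes higher and 0 lower with ABX, beside 4.57% and 11.4% of all genes. Negative fold changes numbered 16 of 35, with a median of 0.00 beside 0.01 over all genes. This rested on ABX library 4, since without it 25 of 35 were negative, with a median of -0.16 beside 0.01 over all genes. Without that library 9 genes had an unadjusted p under 0.05, beside 29.2% of all genes, and 0 were called, beside 0.167%. In 1 gene the ABX libraries all lay above the non-ABX libraries, beside 3.62% of all genes, and in 0 below, beside 3.14%. The gene was Ifih1, which encodes MDA5, a sensor of long double-stranded RNA, with 8.01, 7, 7.9 and 7.48 CPM in ABX libraries against 6.69, 5.02 and 6.56 CPM in non-ABX libraries. EdgeR gave it a log2 fold change of 0.32 with SE 0.114 and an adjusted p of 0.311. Ifit2, which restricts translation of viral RNA, averaged 17.5 ± 1.98 CPM (SD, n = 4) with ABX and 14.9 ± 1.42 CPM (SD, n = 3) without, and edgeR put the log2 fold change at 0.24 with SE 0.105 and an adjusted p of 0.312. Its ABX and non-ABX libraries overlapped. H2-D1 averaged 9.26 ± 2.92 CPM (SD, n = 4) with ABX and 12.6 ± 4.65 CPM (SD, n = 3) without, where non-ABX library 3 held 18 CPM.

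**Figure D4:**
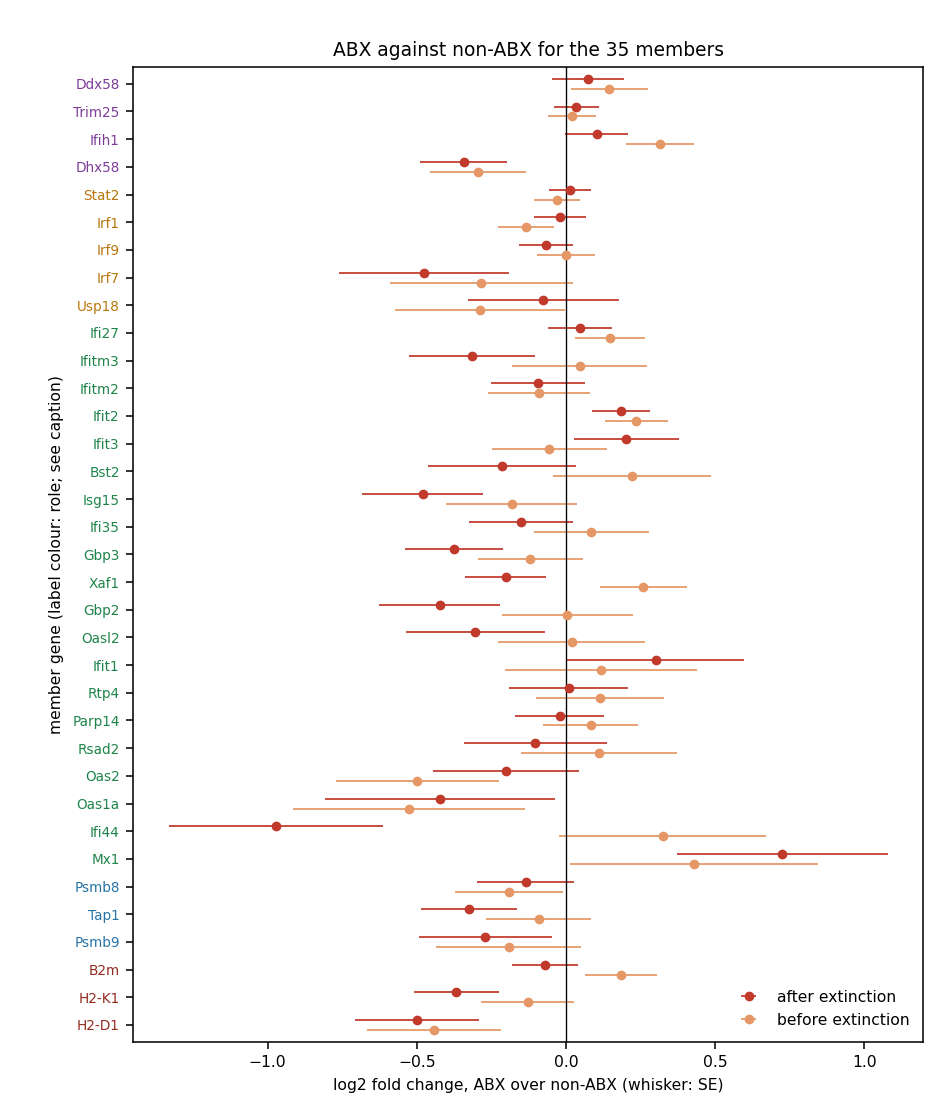
Log2 fold change of ABX over non-ABX for each of the 35 genes after extinction (red) and before extinction (orange), with SE as whiskers and label colours by role as in the plot of length-scaled levels. Most points after extinction lie left of 0 (25 of 35), those before extinction lie on both sides (16 of 35 negative with all libraries, 25 of 35 without ABX library 4, 30 of 35 with limma-voom), and both class I heavy chains and all 3 immunoproteasome and transport genes are negative at both stages.

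Averaged over both stages, ABX over non-ABX had 0 genes called by edgeR, beside 105 of all genes (0.624%), and the smallest adjusted p was 0.0786. DESeq2 called 2, Ifit2 higher and H2-D1 lower, beside 3.88% of all genes called higher and 7.88% lower. Limma-voom with sample weights called 5 lower, Dhx58, Oas2, Gbp2, Gbp3 and H2-K1, beside 3.35% of all genes called lower. At an unadjusted p under 0.05, 3 genes were higher and 4 lower, beside 12.8% and 17.8% of all genes. Negative values numbered 21 of 35, with a median of -0.08 beside 0.01.

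By the rule, 3 genes are named for the average. H2-D1 averaged 9.70 CPM over 8 ABX libraries and 13.6 CPM over 7 non-ABX libraries (log2 fold change -0.47, SE 0.153, edgeR adjusted p = 0.0786). Ifit2 had 16.8, 14.7, 13.9 and 15.1 CPM in ABX libraries after extinction and 20, 15.9, 18.2 and 16.0 CPM before, against 12.8, 11.9, 14.2 and 14.4 CPM and 15.4, 13.2 and 15.9 CPM in non-ABX libraries of these stages. The difference on the log2 scale was 0.21 with SE 0.0715 (edgeR adjusted p = 0.0831). Dhx58 had 1.66, 1.31, 1.28 and 1.91 CPM in ABX libraries before extinction against 1.91, 2.19 and 1.54 CPM in non-ABX libraries, and -0.32 (SE 0.109, edgeR adjusted p = 0.0852) over both stages. Once the stages were joined, the ABX and non-ABX libraries overlapped in all 35 genes, while 0.232% of all genes lay apart as higher and 0.279% as lower. Ifih1 (0.21, edgeR adjusted p = 0.0994), H2-K1 (-0.25, 0.130), Isg15 (-0.33, 0.149) and Mx1 (0.58, 0.163) were the other genes with an unadjusted p under 0.05.

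The average depended on the libraries that stood apart. Without ABX library 4 before extinction, edgeR called 9 of 35 genes, Ifit2 higher and Dhx58, Irf7, Ifitm3, Isg15, Oas2, Gbp3, H2-D1 and H2-K1 lower, where it then called 5.91% of all genes higher and 12.3% lower. Without that library and ABX library 1 after extinction together, an omission chosen after seeing the data, it called 7 lower, beside 3.17% of all genes called lower. These were Dhx58, Irf7, Isg15, Oas2, Gbp3, H2-D1 and H2-K1, and the median of the 35 was -0.17. The libraries were picked because the pathway was high in them, so leaving them out lowers the ABX levels by construction. Among these Irf7 had the smallest adjusted p without the pair, -0.69 on the log2 scale with SE 0.142 and an edgeR adjusted p of 0.0307, against -0.38 with SE 0.209 and an edgeR adjusted p of 0.221 over all libraries. H2-D1 had -0.59 (SE 0.145, edgeR adjusted p = 0.0462) without the pair. With the GC correction of the next paragraph added, 9 were called lower, beside 3.59% of all genes. In the other 14 leave-one-out fits edgeR called 0 of the 35. Without ABX library 1, 2 or 3 before extinction it called 0.0655%, 0.0775% and 0.0655% of all genes. The fewest genes called over all genes in a leave-one-out fit were 4.

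GC content and vessel markers moved with the same comparison. Across genes, which are not independent replicates and share these libraries, the averaged log2 fold change of the 35 genes had a Pearson correlation of -0.48 with transcript GC content, and all 16231 tested genes with a GC value had -0.59. Transcript GC content ran from 40.4% in Ifi44 to 55.9% in H2-D1. With the GC trend removed, H2-D1 had -0.33 (SE 0.104, edgeR adjusted p = 0.0731), Ifit2 0.08 (SE 0.0449, edgeR adjusted p = 0.316) and Ifih1 0.08 (SE 0.057, edgeR adjusted p = 0.384), and 0 of the 35 were called, beside 3.78% of all genes. The 8 endothelial markers summed to 153 to 215 CPM in ABX libraries after extinction against 216 to 228 CPM in non-ABX libraries, and to 153 to 210 CPM before extinction against 222 to 246 CPM, with 0 of 8 markers at 0. All 8 had negative fold changes and 3 were called lower in the average. The 6 pericyte and smooth muscle markers summed to 98.4 to 127 CPM in ABX libraries after extinction against 127 to 153 CPM in non-ABX libraries, and to 102 to 138 CPM before extinction against 122 to 150 CPM, with 0 of 6 at 0. Of these 5 had negative fold changes and 3 were called in the average, with a median of -0.40, beside -0.40 for the endothelial markers. The part of endothelial cells, of pericytes and smooth muscle and of GC content in the lower values of the class I heavy chains was not tested.

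**Figure D5:**
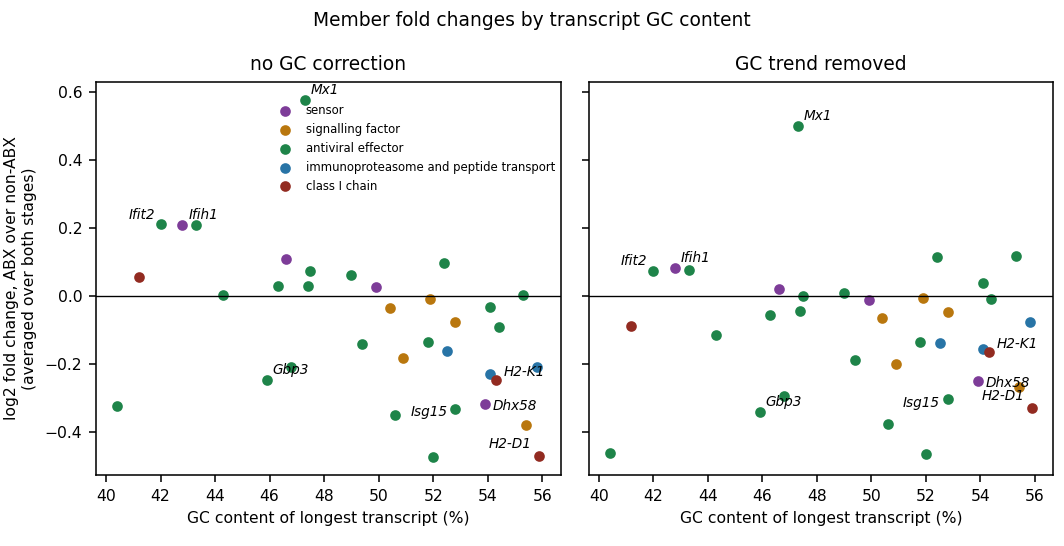
Log2 fold change of ABX over non-ABX, averaged over both stages, against GC content of the longest transcript (%) for the 35 genes, coloured by role, before (left) and after (right) the GC trend over all genes was removed. With the trend removed Ifit2 and Ifih1 lie at 0.08, against 0.21 before removal, while H2-D1 lies at -0.33, against -0.47.

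The comparison of stages within non-ABX mice asks how the pathway stood after extinction against before it. EdgeR and DESeq2 called 0 of 35 genes, beside 0 of all genes by edgeR (0%) and 0.113% by DESeq2. Limma-voom called 2 higher, H2-D1 and H2-K1, beside 11.5% of all genes. Unadjusted p-values under 0.05 were found for 0 genes in each direction, beside 1.51% higher and 3.43% lower of all genes. Positive values numbered 27 of 35, with a median of 0.11 beside 0.00 over all genes. The median was 0.03, with 22 of 35 positive, without non-ABX library 3 before extinction, and 0.06 without non-ABX library 2 after extinction. In 1 gene the libraries after extinction all lay above those before, beside 2.33% of all genes, and in 0 below, beside 3.57%. Ifi35, an interferon-induced leucine zipper protein, had 2.79, 2.87, 2.46 and 2.27 CPM after extinction against 2.21, 2.17 and 1.91 CPM before (log2 fold change 0.31, SE 0.190, edgeR adjusted p = 0.896).

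Within ABX mice, after over before extinction, edgeR, DESeq2 and limma-voom called 0 of 35 genes, where edgeR called 16 of all genes (0.0951%). DESeq2 called 1.68% of all genes and limma-voom 2.77%. At an unadjusted p under 0.05, 0 genes were higher and 4 lower, beside 7.67% and 8.97% of all genes. Negative values numbered 20 of 35, with a median of -0.06 beside 0.01, and in 0 genes were the libraries of the stages apart, beside 2.69% higher and 2.78% lower. Ifi44 had the smallest p, with 0.426, 0.185, 0.343 and 0.229 CPM after extinction against 0.796, 0.327, 0.598 and 0.947 CPM before (log2 fold change -1.16, SE 0.354, edgeR adjusted p = 0.168). The groups overlapped through library 2 before extinction, whose 0.327 CPM lay below 2 libraries after it. The proapoptotic factor Xaf1 had -0.35 (SE 0.136, edgeR adjusted p = 0.242), Ifih1 -0.23 (edgeR adjusted p = 0.288) and Ifit2 -0.21 (edgeR adjusted p = 0.292). The median depended on the libraries that stood apart: it was 0.13, with 25 of 35 positive, without ABX library 4 before extinction and -0.15 without ABX library 1 after extinction.

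Averaged over treatment, after over before extinction had 0 of 35 called by edgeR, beside 162 of all genes (0.963%). DESeq2 called 0 of the 35 as well, but its share over all genes is not given here, so this count has no background beside it. Limma-voom called 5 (Ifih1, Dhx58, Ifit2, Psmb8 and H2-D1), 3 higher and 2 lower, beside 20.1% and 17.7% of all genes. At an unadjusted p under 0.05, 0 genes were higher and 1 lower, beside 8.62% and 11.8%, and the median was 0.04 beside 0.00. Its sign turned without ABX library 2 before extinction (-0.03) or ABX library 1 after extinction (-0.02), and it was 0.11 without ABX library 4 before extinction. Ifit2 averaged 14.2 CPM after and 16.4 CPM before extinction (log2 fold change -0.19, SE 0.0712, edgeR adjusted p = 0.178). Ifi44 had -0.51 (SE 0.250, edgeR adjusted p = 0.258) and Psmb8 0.25 (SE 0.123, edgeR adjusted p = 0.261). The libraries of the stages overlapped in all 35 genes, while 0.0892% of all genes lay apart as higher and 0.22% as lower.

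Whether the ABX difference itself differed between stages was tested by the interaction. EdgeR, DESeq2 and limma-voom called 0 of 35 genes, beside 0 of all genes by edgeR (0%), 0.0238% by DESeq2 and 0% by limma-voom. At an unadjusted p under 0.05, 0 were positive and 2 negative, beside 1.29% and 0.767% of all genes, with a median of -0.10 beside 0.01. The sign of this median rested on ABX library 4 before extinction, without which it was 0.03 with 20 of 35 positive. The smallest p belonged to Ifi44 (-1.30, SE 0.498), Xaf1 (-0.46, SE 0.199) and B2m (-0.25, SE 0.163), each with an edgeR adjusted p of 1. For Ifi44 the ABX over non-ABX log2 fold change was -0.97 after extinction and 0.32 before it, where non-ABX libraries had 0.586, 0.297 and 0.699 CPM. Xaf1 had 3.51, 3.31, 3.43 and 3.79 CPM in ABX libraries after extinction against 4.13, 4.9, 3.45 and 3.65 CPM in non-ABX libraries, and 5.07, 3.72, 4.01 and 5.1 CPM before extinction against 3.69, 3.24 and 4.28 CPM. Its groups overlapped at both stages. These comparisons share libraries, so their values are set side by side and not counted as separate evidence.

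The rest of the pathway was read from a list of 138 further genes, of which 120 were tested. None of the 10 interferon genes themselves passed the filter, with at most 3 counts in any library. Of the 120, 65 had a negative fold change with ABX averaged over both stages, beside 47.5% of all genes. EdgeR called 1 of them lower and 0 higher, beside 78 and 27 of all genes (0.624% in either direction). A single call among 120 genes lies near that share. In each of the other 6 contrasts edgeR called 0 of the 120, beside 0% to 0.963% of all genes. The gene called was Gbp4, a guanylate-binding GTPase, which was lower with ABX. It had 2.36, 2.33, 1.71 and 1.71 CPM in ABX libraries after extinction against 3.13, 3.42, 4.02 and 3.10 CPM in non-ABX libraries. Before extinction Gbp4 had 2.65, 1.74, 1.45 and 2.24 CPM with ABX and 2.88, 2.63 and 3.21 CPM without. The groups did not overlap after extinction, and before it only ABX library 1 reached the lowest non-ABX library. Averaged over both stages it stood at -0.64 on the log2 scale with SE 0.126 (edgeR adjusted p = 0.0372). The call was lost in 11 of 15 leave-one-out fits, where the adjusted p reached 0.126. It held without ABX library 1 or 4 or non-ABX library 4 before extinction, or without non-ABX library 4 after extinction.

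Within the other lists the smallest p for ABX averaged over both stages did not pass the test. Among 9 receptors and kinases it was that of Il10rb, a shared cytokine receptor chain (log2 fold change -0.19, edgeR adjusted p = 0.0769). Among 14 signal transducers and regulators it was that of Nlrc5, the transactivator of class I genes (-0.33, edgeR adjusted p = 0.0960). Among 14 further nucleic acid sensing genes it was that of the DNA sensor Aim2 (0.32, edgeR adjusted p = 0.0767). Uba7, the enzyme that activates ISG15, had -0.37 (edgeR adjusted p = 0.0634) among 45 other interferon-stimulated genes. H2-Q4, a nonclassical class I heavy chain, had -0.44 (edgeR adjusted p = 0.0896) among 15 genes of class I processing and other class I chains. Ctss, a protease of the class II pathway, had 0.17 (edgeR adjusted p = 0.148) among 11 class II genes. Negative values numbered 5 of 9 receptors and kinases, 11 of 14 transducers and regulators, and 7 of 14 sensing genes. They numbered 21 of 45 other interferon-stimulated genes, 8 of 12 guanylate-binding and immunity-related GTPases, 9 of the 15 and 4 of the 11.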

How the data were processed

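Deposited raw counts per Entrez gene identifier were analysed. The build was mm10 and the tools CASAVA 1.8.2 and STAR 2.3.0, per the submitters' processing notes. Counting program, annotation and filters: not given in the sources used here. In addition, the SMARTer V4 kit named in the labels does not keep strand, so antisense neighbours cannot be told apart. The 15 libraries held 44254906 to 57929503 counts. CPM uses these totals scaled by TMM factors (0.969 to 1.03).

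Counts deposited by the authors were tested in R 4.3.3 with edgeR 4.0.16 (filterByExpr with a minimum count of 10, TMM, quasi-likelihood test, two-sided, Benjamini-Hochberg adjustment over 16816 genes, 4 group means, 7 contrasts). No label says that a library is 1 animal, so p-values reflect only the spread among these libraries. Alternatives were DESeq2 1.42.0, limma 3.58.1 voom with sample weights, RLE factors, other filters, a replicate block, a GC spline (5 degrees of freedom per library), the compared groups alone and each library left out. Omitting 2 libraries together was added after seeing the data. The code was tested on simulated data.

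The members and lists were chosen with earlier results of these data known. In each contrast the text names called genes and the 3 of smallest unadjusted p, in pairwise contrasts among genes whose libraries did not overlap. It also names the most abundant gene per role, genes with a library standing apart, and the smallest p of each further list. Others with an unadjusted p under 0.05 were added afterwards. Symbols, transcript lengths and GC content come from reference annotation of the same build. Promoters are from RefSeq. No library pair was a duplicate (chi-square per degree of freedom of at least 6.14).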

Additional observations from a re-analysis of the deposited data

Results flagged for a closer look

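In 13 of 105 groups of 4 libraries, in 11 of the 35 genes, 1 library lay far from the other 3 by Dixon's test at the 95% level. Chance flags about 1 group in 20, but the genes share the same libraries and are not independent, so the count cannot measure an excess over chance. The non-ABX group before extinction, with n = 3, was left out of this check. ABX library 4 before extinction gave 5 of these. It had 2.90 CPM of Irf7 (1.11 to 1.14 in the others), 14.7 CPM of Irf9, the DNA-binding part of the ISRE complex (11.5 to 11.6), and 23.5 CPM of Ifi27 (16.2 to 17.3). It also had 0.464 CPM of Oas1a (0.192 to 0.236) and 1.13 CPM of Oas2 (0.491 to 0.544), both oligoadenylate synthetases.

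ABX library 1 after extinction gave another 5. It had 13 CPM of Irf9 (11.1 to 11.4), 6.47 CPM of Ifit1 (2.23 to 2.33) and 0.979 CPM of Mx1 (0.322 to 0.432). It had 5.53 CPM of Oasl2, an oligoadenylate synthetase-like protein (2.94 to 3.09), and 2.09 CPM of the antiviral enzyme Rsad2 (1.11 to 1.23).

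The other 3 were low values. Trim25, a ubiquitin ligase that activates RIG-I, had 7.51 CPM in ABX library 2 after extinction (8.24 to 8.25). Ifit1 had 1.98 CPM in ABX library 2 before extinction (3.19 to 3.35). Psmb8 had 1.68 CPM in non-ABX library 4 after extinction (2.67 to 2.87).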

How the results depend on the processing

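Among 27 single-gene results, 653 of 683 alternative values kept their direction and side of the threshold, 19 passed it newly, 11 lost it (Gbp4, single libraries left out) and 0 reversed. The count of the 35 genes called for ABX averaged over both stages was 0, but 2 with DESeq2, 5 with voom, 7 without 2 libraries, 9 when GC correction was added to that, and 0 to 9 with single libraries left out. For ABX after extinction it was 1 (Gbp3) without 2 libraries and with GC correction. With voom it was 2 for stage in non-ABX mice and 5 for stage averaged over treatment. The median fold change was -0.17 with voom for ABX before extinction, and -0.15 to 0.13 with single libraries left out for stage in ABX mice. The cause of these shifts was not tested.

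Counts over all genes moved more: 105 genes called for averaged ABX became 4 to 3057, 162 for averaged stage 14 to 6358, 16 for stage in ABX mice 3 to 469, 0 for stage in non-ABX mice up to 3191, 0 for the interaction up to 4, 3 for ABX after extinction 0 to 508, and 1 for ABX before it up to 39. Deviations of same-numbered libraries of different groups had r from -0.49 to 0.37 (21 pairs, median 0.02, 8 over 0.1). Those of differently numbered libraries had r from -0.52 to 0.58 (63 pairs, median 0.03, 23 over 0.1). These correlations cannot settle whether the numbers mark a pairing or a shared batch. With the replicate block, 0 of the 35 genes were called in each of the 7 contrasts. Averaged ABX then had 666 calls over all genes (3.96%), against 105 (0.624%) without the block. With the block, 0% to 0.125% of all genes were called in the pairwise contrasts and 0% in the interaction. Ifi44, Mx1 and Oas1a had under 50 counts per library, which limits their precision.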
